A study of Mus musculus with 18 samples.

Results

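The T-cell receptor (TCR) reads peptide and MHC on the thymic stroma, and its proximal signalling machinery is the set of proteins that carries the signal from the receptor to calcium, Ras and NF-kB. The CD3 chains are phosphorylated by the kinases Lck and Fyn, Zap70 is recruited to them and phosphorylates the adaptors Lat and SLP-76 (encoded by *Lcp2*), and phospholipase C gamma 1 and the exchange factors are activated on that scaffold. Phosphatases, ubiquitin ligases and diacylglycerol kinases limit each of these steps, and in the thymus the strength and duration of the signal decide whether a double positive (DP) cell is positively selected, is deleted or dies. A list of 39 genes of this machinery was followed here, and 36 of them had a row on the array that carried a single gene symbol. *Cd247*, *Lck* and *Itpr1* had no such row and were not analysed here. By role the 36 genes were 3 CD3 chains, 2 kinases, 9 adaptors, 9 effectors and 13 genes that set or limit the signal. The kinase group held *Fyn* and *Zap70* only, and the kinases *Csk*, *Prkcq*, *Dgka* and *Dgkz* were placed in other groups. *Cd2* was counted as an adaptor. In all, 22180 genes were measured in the series.

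RNA came from fetal thymus at embryonic day 18.5 of C57BL/6 background mice that were WT, heterozygous (Gli3+/-) or homozygous (Gli3-/-) for a constitutive mutation of Gli3, a transcription factor of the Hedgehog pathway. Thymocytes of each genotype were sorted by flow cytometry into CD69- DP cells (CD4+CD8+CD69-), which have not yet received the positive selection signal, CD69+ DP cells (CD4+CD8+CD69+), which have, and SP4 cells (CD4+CD8-), for which no CD69 or CD3 gate is stated. A group was represented by a number 1 and a number 2 array, giving 6 arrays for each population and 18 for the 9 groups. Gli3 was mutant in the stroma as well as in the thymocytes, and the sources used here do not say whether thymi were pooled, so the p-values measure the spread between these samples, which may in part be technical. Values are the authors' RMA intensities on a linear scale and have no fixed zero, so a change is that of a gene against itself across arrays. Levels of different genes were compared only to mark genes as bright or dim. Changes are differences of log2 intensity with their SE from limma, averaged over the 3 genotypes where populations were compared, and a gene was called where its p, adjusted by Benjamini-Hochberg across the 22180 genes tested, was under 0.05.

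Array medians lay between 59.3 and 65.8. The labels of the populations were borne out by some of their markers and not by others. Of 6 DP-stage genes 3 were lower in CD69+ DP than in CD69- DP cells, and 1 was lower in SP4 than in CD69+ DP cells. Of 7 genes of mature SP cells 4 were higher in SP4 than in CD69+ DP cells. *Cd4* was 1400 to 1800 in CD69- DP, 897 to 1260 in CD69+ DP and 880 to 1270 in SP4 cells. *Cd69* lay between 92 and 220 in CD69- DP cells and between 675 and 1420 in CD69+ DP cells. The 3 genes of the DP-stage list that were lower in CD69+ DP than in CD69- DP cells were *Rag2*, *Dntt* and *Cd4*. *Cd4* is in that list although SP4 cells were sorted as CD4+ too, so it does not tell DP from SP4 cells. *Cd8a* fell in SP4 cells but was still between 1120 and 2690 there, against 3820 to 4480 in CD69- DP cells, so the SP4 arrays were not free of *Cd8a* RNA. Of 16 neutrophil and myeloid markers 8 were higher in SP4 than in CD69- DP cells, and their summed intensity was 721 to 769 in CD69- DP, 875 to 1310 in CD69+ DP and 1180 to 2780 in SP4 arrays. *S100a8*, a neutrophil gene, was 16.8 to 28.1 in CD69- DP cells and 495 to 619 on 5 of the 6 SP4 arrays, and 126 on the Gli3-/- SP4 array 1. Of 7 natural killer and innate lymphoid markers 3 were higher in SP4 than in CD69- DP cells, as were 3 of 6 dendritic cell markers, whereas none of the B cell (7), erythroid (2), thymic epithelial (8), mesenchymal (6) and endothelial (5) markers was. In CD69+ DP against CD69- DP cells, 2 of the 7 natural killer and innate lymphoid markers and 1 of the 16 myeloid markers were higher. In bulk RNA fewer cells of a type and less RNA per cell cannot be told apart.

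RefSeq promoter windows, from 250 bases before to 50 after a gene start on build GRCm38.p6, were found for 30 of the 36 genes. Those of 6 genes are printed because they carry the 3 patterns described below: *Prkcq* and *Rasgrp1* were highest in CD69+ DP cells, *Ubash3b* and *Cblb* rose to SP4, and *Themis* and *Cbl* fell to SP4. The sequence is given 5′ to 3′ on the strand of the gene, and capitals mark the letters of 4 motifs searched on both strands, the RUNX motif TGTGGT, the E-box CANNTG, the ETS motif CCGGAA and the GC box GGGCGG. *Ubash3b* and *Themis* have 2 windows in the table and the one listed first was used, and the arrays do not show which start was in use.
Prkcq, chr2:11172132-11172431, plus strand: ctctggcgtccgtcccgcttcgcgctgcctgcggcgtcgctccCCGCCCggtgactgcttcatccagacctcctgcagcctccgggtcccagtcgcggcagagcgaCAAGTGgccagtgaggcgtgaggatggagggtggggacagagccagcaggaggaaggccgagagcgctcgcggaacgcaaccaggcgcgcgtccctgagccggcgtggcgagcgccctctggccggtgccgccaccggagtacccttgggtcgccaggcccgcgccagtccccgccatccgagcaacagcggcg
Rasgrp1, chr2:117342828-117343127, minus strand: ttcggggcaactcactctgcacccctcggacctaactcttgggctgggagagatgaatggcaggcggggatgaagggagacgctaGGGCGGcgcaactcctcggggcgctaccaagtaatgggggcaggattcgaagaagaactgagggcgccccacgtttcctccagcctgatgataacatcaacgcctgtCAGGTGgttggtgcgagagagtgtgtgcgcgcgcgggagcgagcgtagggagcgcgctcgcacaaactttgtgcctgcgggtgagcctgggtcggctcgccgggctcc
Ubash3b, chr9:41158013-41158312, minus strand: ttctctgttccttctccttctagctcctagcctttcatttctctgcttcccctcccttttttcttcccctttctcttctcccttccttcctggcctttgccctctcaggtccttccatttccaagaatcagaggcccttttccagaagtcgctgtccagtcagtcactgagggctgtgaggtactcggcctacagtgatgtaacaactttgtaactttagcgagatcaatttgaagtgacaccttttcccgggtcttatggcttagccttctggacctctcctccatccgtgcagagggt
Cblb, chr16:52031299-52031598, plus strand: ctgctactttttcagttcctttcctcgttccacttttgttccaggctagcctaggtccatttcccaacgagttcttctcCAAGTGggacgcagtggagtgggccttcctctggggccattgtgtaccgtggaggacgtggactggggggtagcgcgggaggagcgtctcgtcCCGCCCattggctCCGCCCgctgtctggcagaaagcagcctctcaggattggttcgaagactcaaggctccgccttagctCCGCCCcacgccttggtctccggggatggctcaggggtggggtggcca
Themis, chr10:28668110-28668409, plus strand: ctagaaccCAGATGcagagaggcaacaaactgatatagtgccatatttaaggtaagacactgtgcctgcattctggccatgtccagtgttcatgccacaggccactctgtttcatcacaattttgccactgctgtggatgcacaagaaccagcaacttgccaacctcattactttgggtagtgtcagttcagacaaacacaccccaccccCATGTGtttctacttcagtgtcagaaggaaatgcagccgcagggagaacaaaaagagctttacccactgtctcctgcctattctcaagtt
Cbl, chr9:44233997-44234296, minus strand: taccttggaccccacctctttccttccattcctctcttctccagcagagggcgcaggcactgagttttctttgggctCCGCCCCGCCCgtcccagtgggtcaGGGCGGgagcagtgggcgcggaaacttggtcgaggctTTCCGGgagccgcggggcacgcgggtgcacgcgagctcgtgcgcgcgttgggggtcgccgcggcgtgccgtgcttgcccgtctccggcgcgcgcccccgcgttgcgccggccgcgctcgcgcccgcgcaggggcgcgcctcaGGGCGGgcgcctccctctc
The windows of the 2 genes that rose to SP4 had no feature in common among these motifs: *Cblb* held 3 GC boxes and 1 E-box, and *Ubash3b* held none of the 4 motifs. *Cbl* held 4 GC boxes, of which a pair overlapped, and 1 ETS motif, and its window was 74% G and C, against 47.3% for *Themis*, which held 2 E-boxes and no GC box. *Prkcq* and *Rasgrp1* each held 1 E-box and 1 GC box. Matches of different motifs did not overlap in these windows, and none held the RUNX motif. Over all 32851 windows of this length, a GC box was present in 35.7%, an E-box in 72.3%, a RUNX motif in 16.8% and an ETS motif in 14.9%. Among the windows of the 30 genes, 1 for each gene, the shares were 46.7%, 76.7%, 13.3% and 13.3%, and these matches are a description of letters only.

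**Figure D1:**
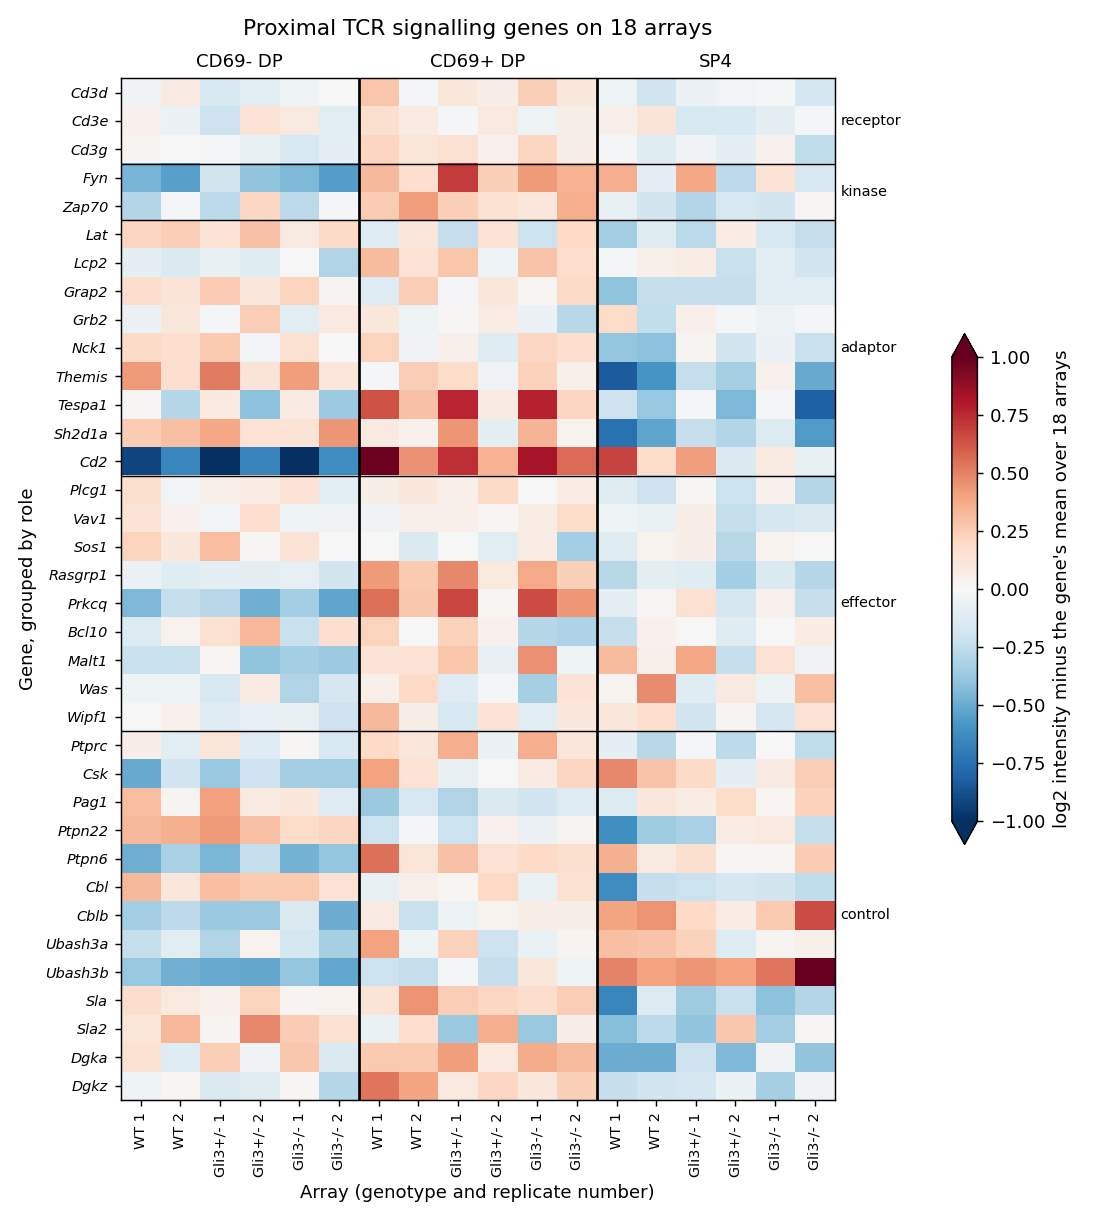
Log2 intensity of the 36 genes (rows, grouped by role) on each of the 18 arrays (columns, by population, genotype and replicate number), drawn as the difference from the gene's own mean over all arrays. *Cd2*, *Fyn* and *Prkcq* are blue on the 6 CD69- DP arrays and red on CD69+ DP arrays, *Ubash3b* and *Cblb* are red on SP4 arrays, and the 3 genotypes of a population differ less than this by eye. Values beyond 1 on either side take the end colours.

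Positive selection was addressed by comparing CD69+ DP with CD69- DP cells. Both genes of the kinase group, the CD2 receptor and 2 effectors, of the Ras and the NF-kB branch, were higher after it. Of the 36 genes 12 were higher and 2 were lower in CD69+ DP cells, that is 33.3% and 5.56%, against 3.06% and 4.73% of all genes. The genes of the list are bright, and among the 5545 genes of highest mean intensity, which hold 35 of the 36, the shares were 7.07% higher and 11.8% lower. The median change was +0.16 for the 36 genes and +0.01 for all genes.

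*Cd2*, the adhesion receptor that binds CD48 in the mouse and whose tail docks kinases and adaptors, showed the largest rise of the 36. Its intensity was 649 to 940.1 (median 841) on the 6 CD69- DP arrays and 1844 to 2859 (median 2283) on the 6 CD69+ DP arrays. The groups did not overlap, and the change was +1.499 (SE 0.15, 2.83-fold, adjusted p = 5.72e-05). This is a mean over rises that ran from +1.01 to +1.90 by genotype and array number. On number 1 arrays *Cd2* went from 649 to 766 in CD69- DP to 2417 to 2859 in CD69+ DP cells. On number 2 arrays it went from 917 to 940 to 1844 to 2149. The difference between the numbers in this rise was not tested. Both genes of the kinase group rose. *Fyn*, the Src-family kinase that can act beside Lck, went from 237 to 305 (median 253) to 389 to 563 (median 438), with a change of +0.80 (SE 0.12, adjusted p = 0.00157) and no overlap. *Zap70*, which was singled out after its values were seen, had medians of 361 and 472 and a change of +0.37 (SE 0.10, adjusted p = 0.0307), with 1 of the 6 sources (genotype and array number) moving the other way.

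Of the 9 effectors 2 were called higher. *Prkcq*, the protein kinase C theta that leads to NF-kB, was 678 to 827 (median 741) in CD69- DP and 986 to 1551 (median 1375) in CD69+ DP cells, a change of +0.82 (SE 0.115, adjusted p = 0.00083). *Rasgrp1*, the exchange factor that activates Ras, was 1705 to 1861 (median 1811) and 2074 to 2697 (median 2424), a change of +0.42 (SE 0.08, adjusted p = 0.00541). For both genes every CD69+ DP array was above every CD69- DP array. The other 7 effectors were not called. They were phospholipase C gamma 1 (*Plcg1*), the exchange factors *Vav1* and *Sos1*, the NF-kB adaptor *Bcl10* and its partner *Malt1*, and the actin regulators *Was* and *Wipf1*, and their changes ran from -0.22 (*Sos1*) to +0.40 (*Malt1*, adjusted p = 0.0664, and 0.00659 with the array number as a block).

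Among adaptors *Tespa1*, a thymocyte protein required for positive selection in the mouse, rose from 607 to 866 (median 741) to 858 to 1376 (median 1124). The ranges met at their edges, and its number 2 array was the lower one in every group, but all 6 sources rose, and the change was +0.60 (SE 0.17, adjusted p = 0.0497). The call was lost with an intensity trend and robust prior (adjusted p = 0.0536) and with quantile normalisation (adjusted p = 0.0564). *Lcp2*, the SLP-76 scaffold, was called at +0.31 (adjusted p = 0.0326). *Lat*, the membrane scaffold, *Grap2* (Gads), which joins it to SLP-76, *Grb2*, *Nck1*, which links SLP-76 to the actin cytoskeleton, *Themis* and *Sh2d1a* were not called, with changes between -0.22 and -0.04. The 3 CD3 chains were not called either (*Cd3d* +0.17, *Cd3e* +0.07 and *Cd3g* +0.18, with adjusted p from 0.132 to 0.661).

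The genes that set or limit the signal moved in both directions, with 5 of 13 higher and 2 lower. *Ptpn6* encodes the phosphatase SHP-1, and it was 447 to 531 (median 467) in CD69- DP cells and 682 to 916 (median 708) in CD69+ DP cells, a change of +0.64 (SE 0.09, adjusted p = 0.00078) with no overlap. *Csk*, the kinase that phosphorylates the inhibitory tyrosine of Lck and Fyn, was 310.1 to 385 (median 346) and 417 to 580.2 (median 475), a change of +0.45 (SE 0.08, adjusted p = 0.00456), again with no overlap. By contrast *Pag1*, the membrane protein that docks Csk, was 174 to 252 (median 203) and 146 to 173 (median 168), a change of -0.35 (SE 0.09, adjusted p = 0.0256). *Ptpn22*, a phosphatase of Lck and Zap70 that binds Csk, was 908 to 1074 (median 991) and 686 to 821 (median 778), a change of -0.38 (SE 0.09, adjusted p = 0.0225). Csk thus rose while the genes for its membrane dock and for a phosphatase partner fell. Smaller rises were called for *Dgkz* (+0.36), a kinase that removes diacylglycerol, *Ubash3b* (+0.36, lost with cyclic loess, adjusted p = 0.066, and with quantile normalisation, adjusted p = 0.0621) and *Cblb* (+0.32), and *Ptprc*, which encodes the phosphatase CD45 that primes Lck and Fyn, *Cbl*, *Ubash3a*, *Sla*, *Sla2* and *Dgka* were not called.

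**Figure D2:**
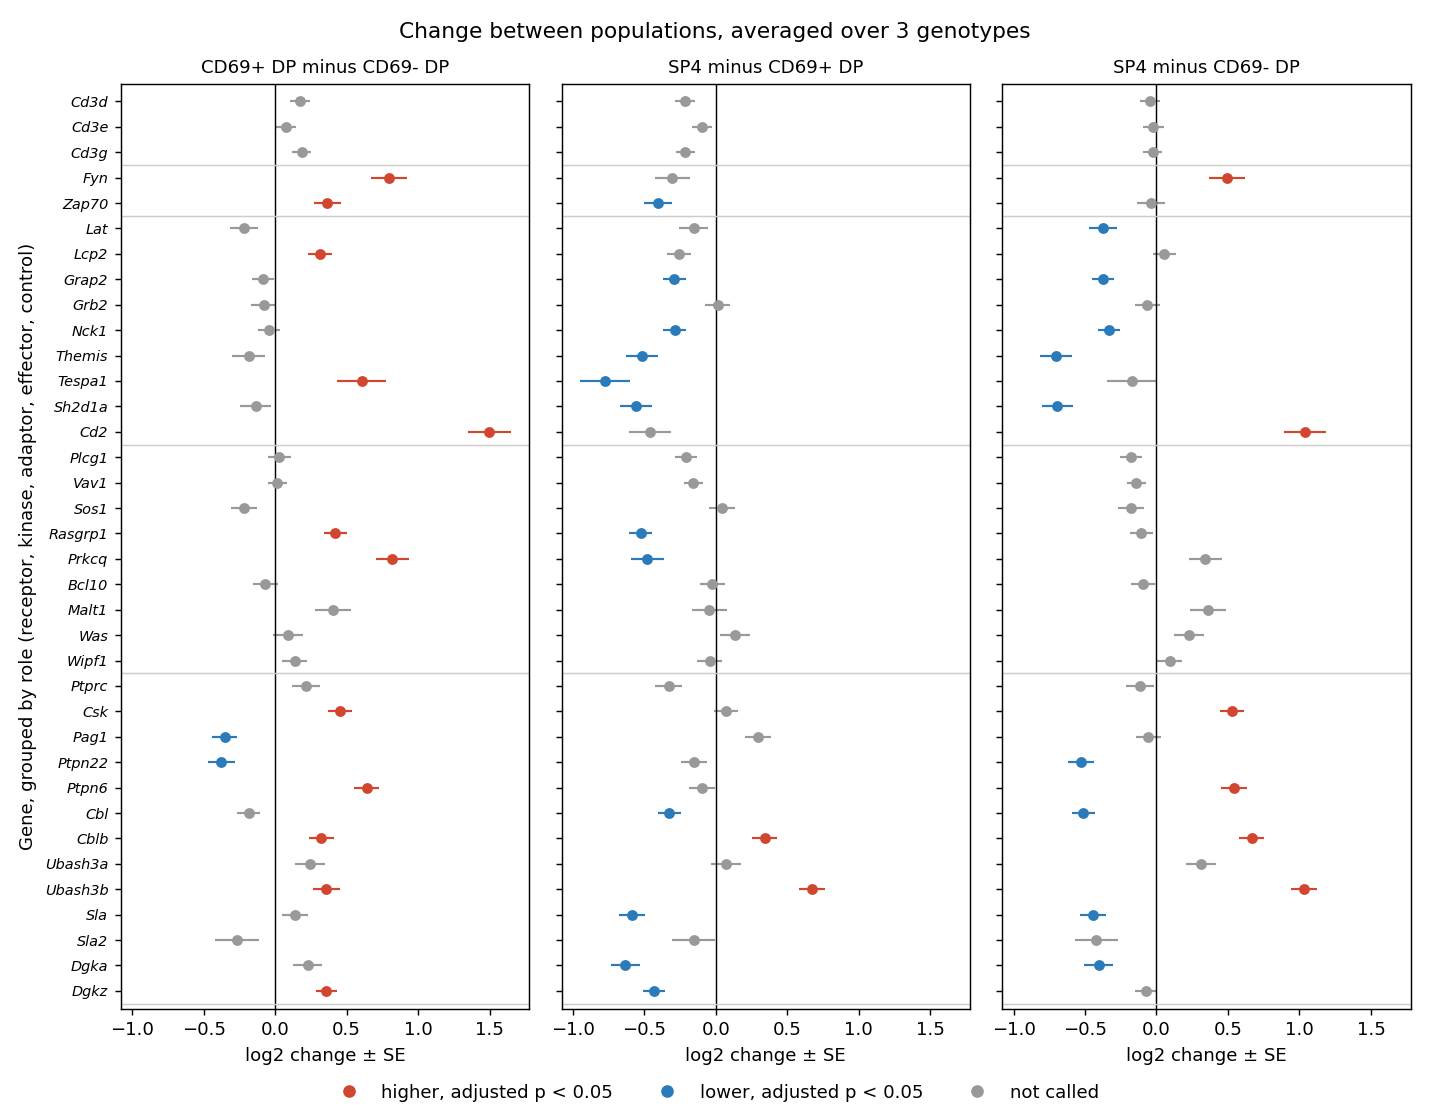
Log2 change with its SE (x axis) for each of the 36 genes (y axis, by role) in the 3 comparisons of populations, averaged over 3 genotypes with 6 arrays a population. *Cd2* lies at +1.499 and *Prkcq* at +0.82 in the left panel, *Tespa1* at -0.77 in the middle panel, and *Ubash3b* at +1.03 and *Themis* at -0.70 in the right panel; the CD3 chains stay within 0.22 of 0.

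The further step, SP4 against CD69+ DP cells, went mostly down. In SP4 cells 2 of the 36 genes were higher and 12 were lower, 5.56% and 33.3%, against 4.41% and 1.74% of all genes (9.36% and 4.71% among those bright genes). The median change was -0.21 for the 36 genes and -0.02 for all genes. This comparison shares the 6 CD69+ DP arrays with the one above, so a gene that was high on those arrays enters both. Of the 36 genes 19 peaked by mean in CD69+ DP, 12 in CD69- DP and 5 in SP4 cells (52.8%, 33.3% and 13.9%, against 37.7%, 32.7% and 29.6% of all genes).

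*Tespa1* fell furthest. It was 458 to 799.7 (median 662) in SP4 cells, below all 6 CD69+ DP arrays, and the change was -0.77 (SE 0.17, adjusted p = 0.0171). *Rasgrp1* was 1529.7 to 1809 (median 1676), again with no overlap, and changed by -0.53 (SE 0.08, adjusted p = 0.00169). *Prkcq* (-0.48), *Zap70* (-0.41) and *Dgkz* (-0.43) were called lower as well. These genes, which had been higher in CD69+ DP than in CD69- DP cells, were not called between SP4 and CD69- DP cells, where their changes were -0.17 for *Tespa1*, -0.105 for *Rasgrp1*, +0.34 for *Prkcq* (adjusted p = 0.0874), -0.04 for *Zap70* and -0.07 for *Dgkz*.

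A further set was called lower at this step and had not been called at the earlier one, although the difference between the steps was not tested. *Themis*, an adaptor whose loss in the mouse blocks positive selection, was 2030.0 to 2689 (median 2297) in CD69- DP, 1828 to 2226 (median 2037) in CD69+ DP and 1052 to 1931 (median 1406) in SP4 cells. The SP4 change from CD69+ DP cells was -0.52 (SE 0.11, adjusted p = 0.0147), with overlap through the Gli3-/- SP4 array 1. *Sh2d1a*, the SAP adaptor of SLAM-family receptors, was 717 to 887 (median 791), 615 to 887 (median 683) and 389 to 596 (median 493) in the same order, with -0.56 (SE 0.11, adjusted p = 0.00809) and no overlap between CD69+ DP and SP4. *Sla*, which encodes SLAP, an adaptor that promotes the loss of the TCR from DP cells, was 1607 to 1841 (median 1658), 1721 to 2147 (median 1846) and 1001 to 1434 (median 1262), with -0.59 (SE 0.09, adjusted p = 0.00183). *Dgka*, a diacylglycerol kinase, was 1529 to 2040.0 (median 1763), 1811 to 2261 (median 2064) and 1201 to 1651 (median 1264), with -0.63 (SE 0.10, adjusted p = 0.00249). For *Sla* and *Dgka* every SP4 array lay below every CD69+ DP array. *Cbl* (-0.33), *Grap2* (-0.29) and *Nck1* (-0.29) completed the 12.

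Both genes that rose from CD69+ DP to SP4 encode proteins that limit the signal. *Ubash3b*, a phosphatase of the Sts family, was 26.8 to 29.6 (median 27.4) in CD69- DP, 32.6 to 41.6 (median 35.3) in CD69+ DP and 51 to 84.4 (median 53.3) in SP4 cells. No 2 populations overlapped, and the step to SP4 was +0.67 (SE 0.09, adjusted p = 0.000794). These are dim values. The gene's mean was below the median of all rows, and its CD69- DP values were close to those of probes for genes with little or no transcript. They overlapped those of *S100a8*, at 16.8 to 28.1 in CD69- DP cells, and lay somewhat above those of *Eif2s3y*, at 15.1 to 22.5 on Gli3-/- arrays. The *Ubash3b* values were not shown to lie above background, so the size of its changes is not read as a fold. *Cblb*, a ubiquitin ligase that restrains activation, was 382 to 487 (median 423), 462 to 571 (median 556) and 567 to 846 (median 677), with +0.34 (SE 0.09, adjusted p = 0.0323). Its neighbouring populations overlapped slightly, whereas CD69- DP and SP4 cells did not.

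**Figure D3:**
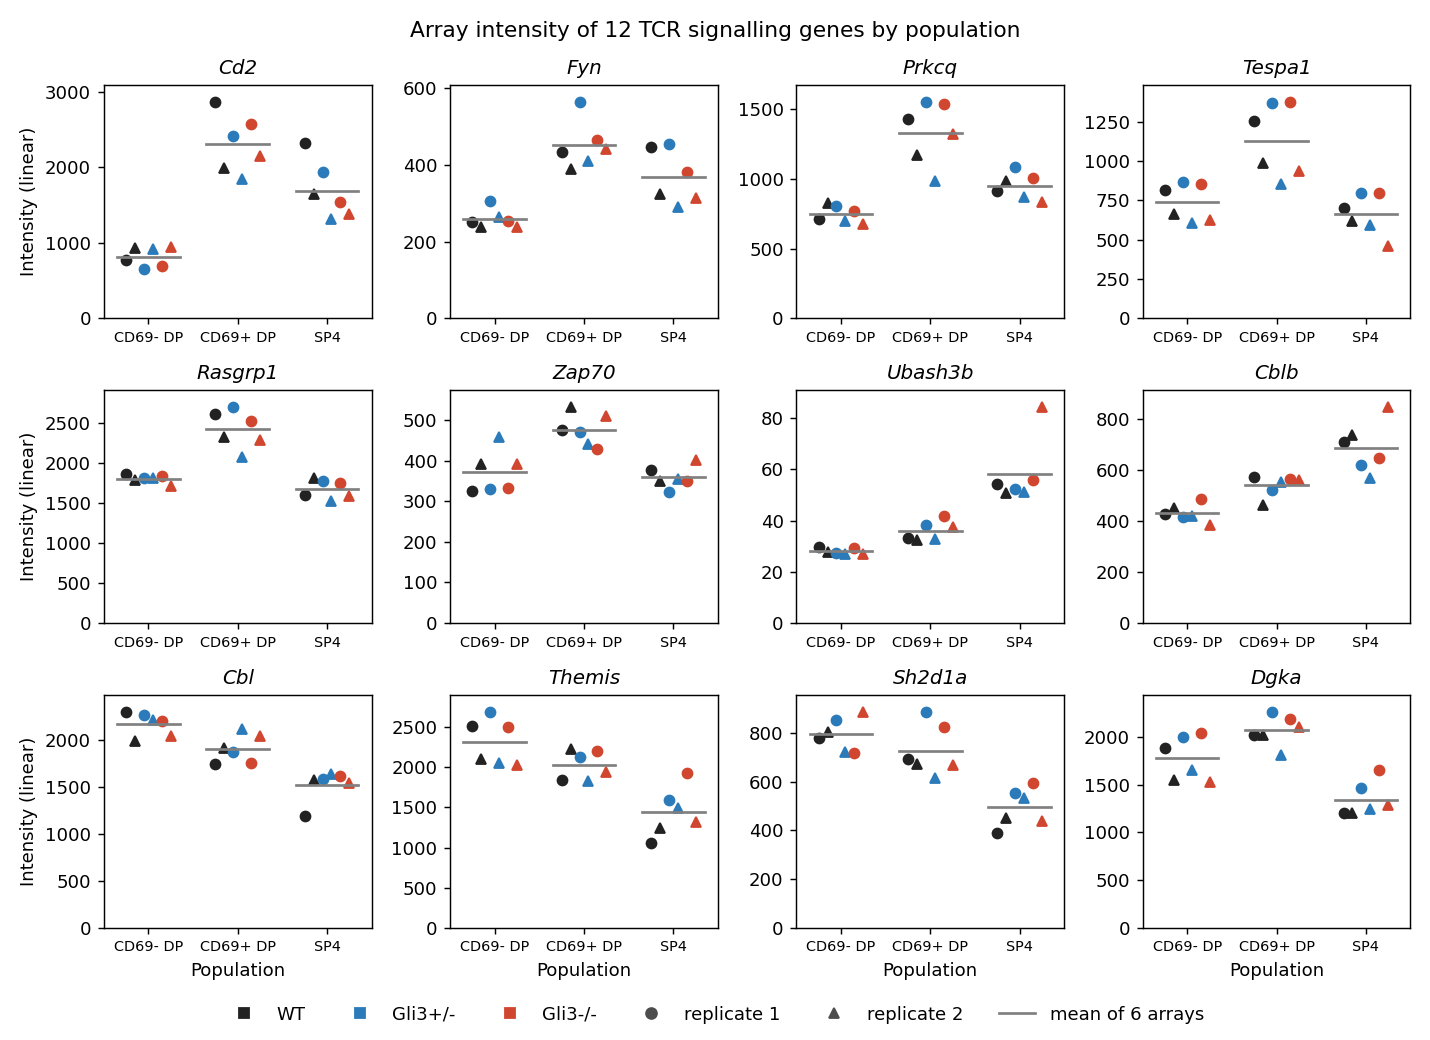
Linear intensity (y axis, from 0) of 12 genes on every array, by population (x axis), with colour for genotype, circles for replicate 1, triangles for replicate 2 and a bar for the mean of the 6 arrays. *Cd2*, *Fyn*, *Prkcq*, *Tespa1*, *Rasgrp1* and *Zap70* peak in CD69+ DP cells, *Ubash3b* and *Cblb* climb to 84.4 and 846 in SP4 cells, and *Cbl*, *Themis*, *Sh2d1a* and *Dgka* are lowest there.

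Across the whole interval, SP4 against CD69- DP cells, 6 of the 36 genes were higher and 9 were lower, 16.7% and 25%, against 5.94% and 3.84% of all genes (10.6% and 10.2% among those bright genes). The median was -0.07, and -0.01 over all genes. *Cd2* changed by +1.04 (SE 0.15, 2.05-fold, adjusted p = 0.000457), and the dim *Ubash3b* was called higher at +1.03 (SE 0.09, adjusted p = 1.23e-05). *Cd2* was 1309.8 to 2315 (median 1595) in SP4 cells, above every CD69- DP array. *Cblb* (+0.67, adjusted p = 0.000231), *Ptpn6* (+0.54, adjusted p = 0.00124), *Csk* (+0.53, adjusted p = 0.00104) and *Fyn* (+0.49, adjusted p = 0.019) made up the rest. The first 3 of these did not overlap between CD69- DP and SP4, with SP4 intensities of 567 to 846, 632 to 799 and 413 to 612, whereas *Fyn* did, at 289 to 454 (median 353) in SP4 cells.

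*Themis* (-0.70, SE 0.11, adjusted p = 0.00113) and *Sh2d1a* (-0.69, SE 0.11, adjusted p = 0.000975) had the largest falls over the interval. *Ptpn22* reached 523 to 855 (median 656) in SP4 cells, a change of -0.53 (SE 0.09, adjusted p = 0.00192). The other falls were *Cbl* (-0.51), *Sla* (-0.45), *Dgka* (-0.40), *Lat* (-0.37), *Grap2* (-0.37) and *Nck1* (-0.33). By role, 5 of the 9 adaptors fell and 1, *Cd2*, rose. Of the 13 genes that set or limit the signal 4 rose and 4 fell. In the kinase group 1 of 2 rose, and none of the 9 effectors or the 3 CD3 chains was called. Over the interval the CD3 chains were the steadiest group, with changes between -0.04 and -0.02 and 95% intervals that lay between -0.19 and +0.13. From CD69+ DP to SP4 cells alone they were lower but not called in limma. *Cd3d* changed by -0.22 (adjusted p = 0.0854), *Cd3g* by -0.21 (adjusted p = 0.0865) and *Cd3e* by -0.10 (adjusted p = 0.512). For *Cd3d* and *Cd3g* these 2 populations did not overlap.

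Paralogs were set side by side after their values had been seen, and the difference between them was not tested. *Cbl*, the ubiquitin ligase that marks the TCR and Zap70 for degradation, was 1992 to 2304 (median 2210.2) in CD69- DP, 1753 to 2121 (median 1892) in CD69+ DP and 1196 to 1641 (median 1583) in SP4 cells, so that it fell while *Cblb* rose. *Ubash3a* had medians of 191, 219 and 243 and a change of +0.31 over the interval that was not called (adjusted p = 0.0829), beside the +1.03 of *Ubash3b*, and was called with the array number as a block (adjusted p = 0.0486). *Sla2* had medians of 659, 571 and 462 and a change of -0.42 that was not called (adjusted p = 0.11), close to the -0.45 of *Sla*, and was called with the block (adjusted p = 0.00738). *Dgka* and *Dgkz* had both fallen between CD69+ DP and SP4 cells, and over the whole interval *Dgka* was called and *Dgkz* was not. *Dgkz* was the only gene of the 36 with 2 rows, and both rows moved in the same direction (+0.36 and +0.33, then -0.43 and -0.51), although with the mean of both rows the rise in CD69+ DP cells was no longer called (adjusted p = 0.133).

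Several of these genes are also used by other blood cells, *Ptpn6*, *Csk*, *Fyn*, *Ubash3b* and *Was* among them. Some myeloid, natural killer and innate lymphoid markers rose in the same comparisons. The part of such cells in the rises was not tested. *Tyrobp*, a myeloid and natural killer cell adaptor, was 63.6 to 90.1 in CD69- DP, 159 to 299 in CD69+ DP and 288 to 1060 in SP4 arrays. *Was*, a gene of all blood cells, thymocytes among them, was also picked after its values were seen. It was 242 to 316, 236 to 343 and 273 to 414 in the 3 populations and was not called in any comparison. From CD69- DP to SP4 cells it changed by +0.23, with all 6 sources higher. In limma its adjusted p was 0.253, and 0.0542 with the array number as a block.

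With the array number as a block, all calls were kept and others were added, 16, 20 and 19 of the 36 genes in the order of the comparisons above, against 12.1%, 11.2% and 14.1% of all genes. Genes gained were *Malt1* and *Ptprc* in CD69+ DP against CD69- DP, *Cd3g*, *Fyn*, *Lcp2*, *Cd2*, *Ptprc* and *Pag1* in SP4 against CD69+ DP, and *Prkcq*, *Malt1*, *Ubash3a* and *Sla2* in SP4 against CD69- DP cells. Many single calls were thin. In SP4 against CD69+ DP, leaving out 1 array lost *Grap2* in 11 of 12 runs, *Cblb* in 9, *Nck1* in 8, *Cbl* in 7, *Prkcq* in 6 and *Tespa1* and *Zap70* in 5. In CD69+ DP against CD69- DP it lost *Cblb* in 10 runs, *Tespa1*, *Lcp2* and *Ubash3b* in 8, *Zap70* and *Ptpn22* in 7 and *Pag1* in 6. Over the interval it lost *Lat* in 8 runs, *Dgka* and *Fyn* in 5 and *Nck1* in 1, and no sign changed in any run. A fit of the compared arrays alone lost *Cbl*, *Cblb*, *Prkcq*, *Grap2* and *Nck1* in SP4 against CD69+ DP cells (adjusted p from 0.0554 to 0.0833), of which *Grap2* and *Nck1* were also lost with an intensity trend and robust prior (adjusted p = 0.0546 and 0.0664) and *Grap2* with quantile normalisation (adjusted p = 0.0705), and *Zap70* in CD69+ DP against CD69- DP cells (adjusted p = 0.0562). Calls that survived every run leaving out 1 array were *Cd2*, *Fyn*, *Prkcq*, *Ptpn6*, *Csk*, *Rasgrp1* and *Dgkz* in the earlier step. Of these, *Dgkz* was lost with the mean of both its rows (adjusted p = 0.133 in limma). In the later step the calls that survived these runs were *Ubash3b*, *Dgka*, *Sla*, *Sh2d1a*, *Rasgrp1*, *Themis* and *Dgkz*. Over the interval they were *Ubash3b*, *Cd2*, *Cblb*, *Ptpn6*, *Csk*, *Themis*, *Sh2d1a*, *Ptpn22*, *Cbl*, *Sla* and *Grap2*.

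Within a single genotype, with 2 arrays against 2 and the variance taken from the fit of all 18 arrays, few genes passed. In WT, *Cd2* and *Ptpn6* rose in CD69+ DP cells, *Dgkz* fell from CD69+ DP to SP4, and 10 genes were called over the interval (5 higher and 5 lower), against 0.681%, 0.618% and 3.62% of all genes in the 3 comparisons. In Gli3+/- cells *Cd2* was called in CD69+ DP cells, none of the 36 from CD69+ DP to SP4, and *Ubash3b* over the interval (0.189%, 0.0721% and 0.672% of all genes). In Gli3-/- cells *Cd2* was called in CD69+ DP cells, none from CD69+ DP to SP4, and *Cblb* and *Ubash3b* over the interval (0.289%, 0.194% and 0.969% of all genes). As a mean of both array numbers, the rise of *Cd2* in CD69+ DP cells was of similar size in all 3 genotypes. It was +1.51 in WT, +1.45 in Gli3+/- and +1.54 in Gli3-/- cells (SE 0.26 each). In each genotype it was larger between the number 1 arrays than between the number 2 arrays. The rise of *Ubash3b* from CD69- DP to SP4 cells was +0.88, +0.93 and +1.29 (SE 0.16 each).

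Other genes of the TCR pathway were read from a list of 51, of which 43 were measured. In CD69+ DP against CD69- DP cells 5 were higher and 2 lower (11.6% and 4.65%, against 3.06% and 4.73% of all genes). In SP4 against CD69+ DP cells 2 were higher and 3 lower (4.65% and 6.98%, against 4.41% and 1.74%), and over the interval 4 were higher and 6 lower (9.3% and 14%, against 5.94% and 3.84%). The genes that rose over the interval were *Pik3cd*, the lymphocyte catalytic subunit of PI3 kinase (+1.12, SE 0.10, adjusted p = 8.91e-06), *Plcg2* (+0.62), which is the phospholipase C gamma of B and myeloid cells, *Orai1*, the pore of the store-operated calcium channel (+0.47), and *Ptpn2* (+0.41), a phosphatase. The largest falls were *Nck2* (-0.72, SE 0.11, adjusted p = 0.000679), a paralog of *Nck1*, *Itpr2* (-0.64), a calcium release channel, *Trat1* (-0.63), a TCR-associated adaptor, and *Pdpk1* (-0.37), which activates Akt. Both *Nck* genes thus fell over the interval.

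The study asked whether loss of Gli3 changes the transition from DP to SP4 cells, so each of the 36 genes was compared between Gli3-/- and WT in each population. None was called in CD69- DP, CD69+ DP or SP4 cells, where 0.0135%, 0.00902% and 0.0135% of all genes were. At an unadjusted p under 0.05, the threshold named in the methods, 0 of the 36 genes passed in CD69- DP, 2 in CD69+ DP (both lower in Gli3-/-) and 3 in SP4 cells (all higher), that is 0%, 5.56% and 8.33%, against 2.01%, 2.91% and 5.14% of all genes. Blocking on array number gave 0, 2 and 5 genes, against 2.9%, 4.72% and 7.17% of all genes, the 5 in SP4 cells (13.9%) being the 3 above with *Nck1* and *Dgka*, and none passed after adjustment. The median change was -0.04, -0.0033 and +0.03 for the 36 genes and -0.0076, -0.001 and -0.02 for all genes. With 2 arrays a group the SE of a gene lay between 0.12 and 0.30, and the 95% intervals of the 36 genes lay between -0.97 and +0.90, so that for many of them the interval was as wide as the changes between populations.

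In CD69- DP cells the smallest p belonged to *Cd3g*, *Pag1*, *Vav1* and *Wipf1*, and all 4 intervals held 0. *Cd3g* was 3323 and 3278 on the WT arrays and 2918 and 3064 on the Gli3-/- arrays (-0.14, interval -0.39 to +0.11). *Pag1* was 234 and 193 in WT and 203 and 174 in Gli3-/- cells (-0.18). *Vav1* was 756 and 708 against 667 and 669 (-0.13), and *Wipf1* was 278 and 288 against 265 and 241 (-0.16). For *Cd3g*, *Vav1* and *Wipf1* both Gli3-/- arrays lay below both WT arrays, by less than the intervals.

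In CD69+ DP cells *Bcl10*, which links protein kinase C theta to NF-kB, was 271 and 233 on the WT arrays, 273 and 239.6 on the Gli3+/- arrays and 191 and 188 on the Gli3-/- arrays. Gli3-/- minus WT was -0.41 (95% interval -0.73 to -0.08, adjusted p = 1 in limma). *Dgkz* was 615 and 558 on the WT arrays, 452 and 489 on the Gli3+/- arrays and 457 and 500.3 on the Gli3-/- arrays, -0.29 (adjusted p = 1 in limma), and both mutant genotypes lay below the WT arrays that they share as a control. *Ubash3b* (33.1 and 32.6 in WT, 41.6 and 37.4 in Gli3-/- cells, +0.26) and *Grb2* (464 and 419, then 415 and 357, -0.20), the adaptor that brings Sos1 to Lat, did not pass at an unadjusted p under 0.05.

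In SP4 cells the genes with the smallest p were mostly genes that fall as DP cells become SP4. *Ptpn22* was 523 and 625 on the WT arrays, 637 and 840.3 on the Gli3+/- arrays and 855 and 676 on the Gli3-/- arrays, with +0.41 between Gli3-/- and WT (interval +0.07 to +0.75, adjusted p = 0.96 in limma), and +0.24 without the Gli3-/- SP4 array 1. *Themis* was 1052 and 1245 on the WT arrays, 1589 and 1491 on the Gli3+/- arrays and 1931 and 1322 on the Gli3-/- arrays, with +0.48 (interval +0.06 to +0.90, adjusted p = 0.96 in limma), and +0.21 without the Gli3-/- SP4 array 1. *Nck1* was 231 and 228 on the WT arrays, 308 and 266 on the Gli3+/- arrays and 291 and 259 on the Gli3-/- arrays, with +0.26, which did not pass at an unadjusted p under 0.05 without the block. For these genes both WT SP4 arrays were below all 4 arrays of the mutant genotypes, which are compared with the same WT arrays. The DP-stage list moved the same way by its median, at +0.43 over 6 genes in Gli3-/- minus WT SP4 cells. In it *Cd8a* was 1120 and 1940 on the WT arrays against 2690 and 2060 on the Gli3-/- arrays. *Cd4*, also in the list, was 1120 and 991 against 1270 and 880. The part of the DP-stage genes in the values of *Ptpn22*, *Themis* and *Nck1* was not tested. *Ubash3b*, which in contrast rises to SP4, was 54.4 and 51 in WT and 55.7 and 84.4 in Gli3-/- cells, +0.38 (adjusted p = 0.96 in limma), and without the Gli3-/- SP4 array 2 the difference was +0.08.

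**Figure D4:**
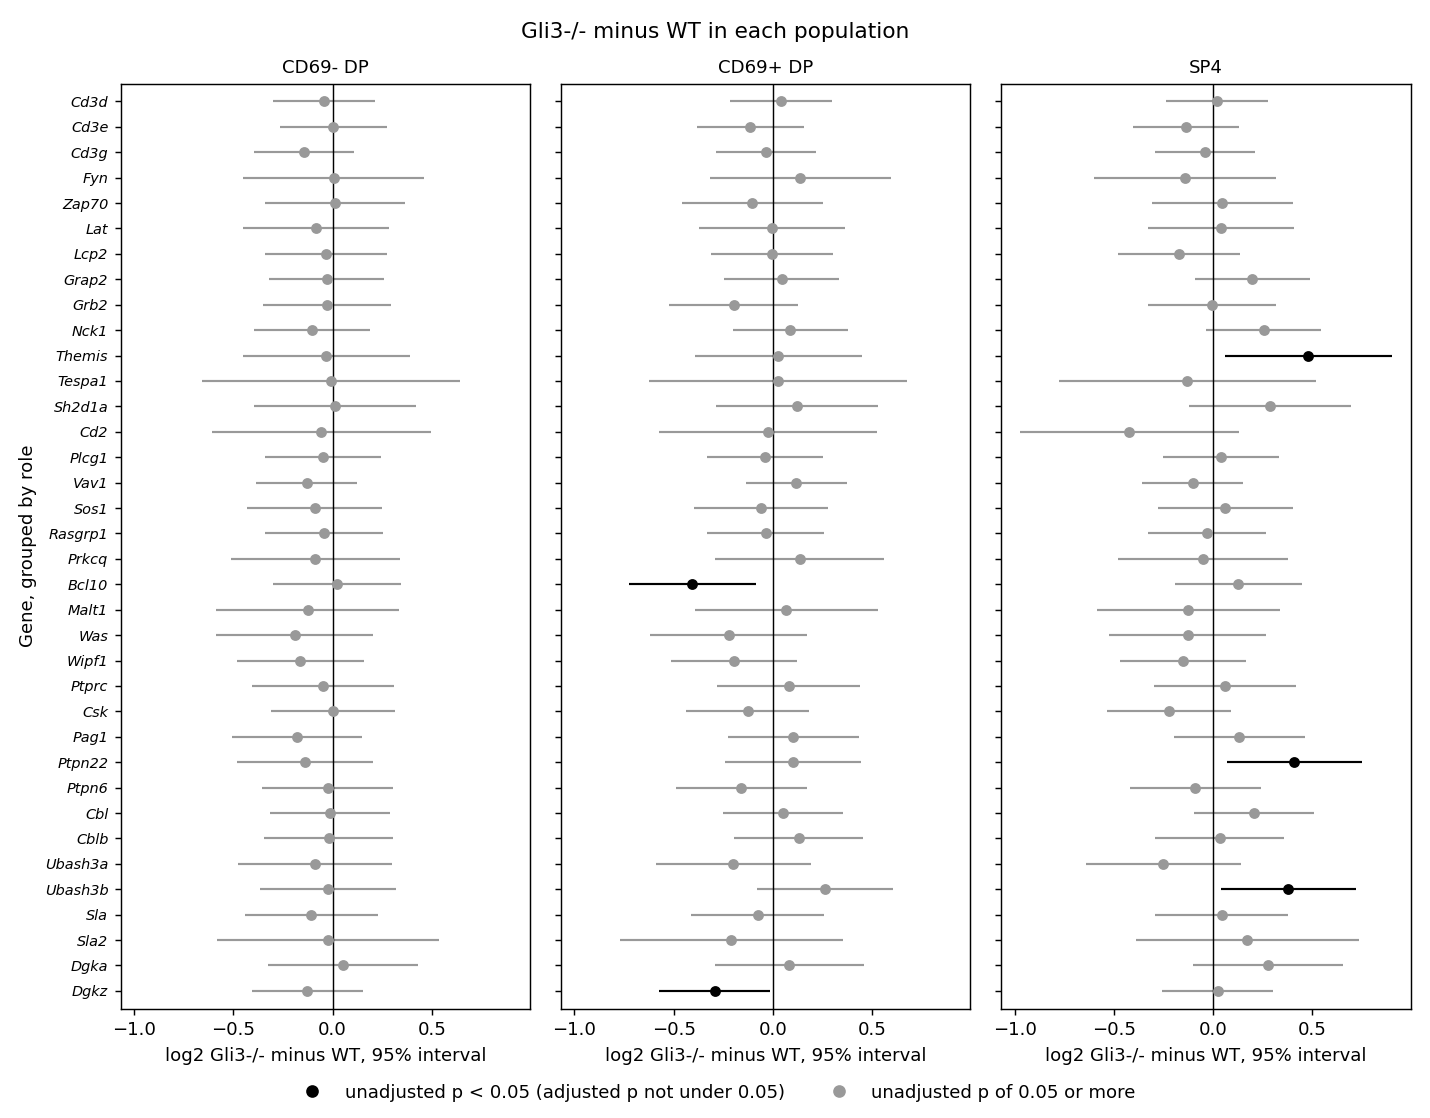
Log2 difference between Gli3-/- and WT cells with its 95% interval (x axis) for each of the 36 genes (y axis, by role) in each population, 2 arrays against 2. *Bcl10* and *Dgkz* in CD69+ DP cells and *Ptpn22*, *Themis* and *Ubash3b* in SP4 cells (black) are the points whose interval does not hold 0, and no gene passed after adjustment.

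Gli3+/- cells were not called against WT for any of the 36 genes in any population. At an unadjusted p under 0.05 there were 0, 1 and 4 genes in the 3 populations in order of maturity, against 1.77%, 2.48% and 4.12% of all genes, namely *Dgkz* in CD69+ DP (-0.32) and *Nck1* (+0.32), *Csk* (-0.33), *Ptpn22* (+0.36) and *Themis* (+0.43) in SP4 cells. Whether the Gli3-/- difference itself changed between populations was tested with an interaction term. None of the 36 genes passed in any of the 3 pairs of populations, and at an unadjusted p under 0.05 there were 0 for CD69+ DP against CD69- DP, 1 for SP4 against CD69+ DP (*Bcl10*, +0.53) and 1 for SP4 against CD69- DP (*Ptpn22*, +0.55), against 2.06%, 3.87% and 3.08% of all genes. When the 3 populations of each source were averaged, which gave 2 values a genotype, none was called, and at an unadjusted p under 0.05 *Ubash3b* passed (+0.21, SE 0.08), against 2.01% of all genes.

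Array number and sex chromosomes also moved across the arrays. Number 2 minus number 1 arrays, within the 9 groups, differed for 8 of the 36 genes, or 22.2%, against 11.6% of all genes. *Tespa1* (-0.47), *Fyn* (-0.28), *Malt1* (-0.26), *Ptprc* (-0.23) and *Dgka* (-0.22) were lower and *Sla2* (+0.35), *Was* (+0.24) and *Lat* (+0.20) were higher on number 2 arrays. The immediate early gene *Fos* was 46.4 to 105 on number 1 arrays and 154 to 456 on number 2 arrays. Each group held both numbers, so the comparisons of groups are balanced for a shift that all groups share. Neither this balance nor the block covers a change between populations that itself differs with the number. In CD69+ DP cells *Cd69* was 1200 to 1420 on number 1 arrays and 675 to 917 on number 2 arrays. *Rag2* was 623 to 769 and 1240 to 1680 on the same arrays. Whether changes between populations depended on the number was not tested. The Y-linked gene *Eif2s3y* was 15.1 to 22.5 on the 6 Gli3-/- arrays and 229 to 696 on the others. *Xist* was 39.7 to 52.4 on the WT number 1 arrays and 2730 or more on all others. The WT number 2 and all Gli3+/- arrays held both signals, with *Xist* at 2730 to 3330 and *Eif2s3y* at 229 to 489. Whether these samples were pools of male and female thymi was not tested. The Y-linked signal was thus high on all WT arrays and low on all Gli3-/- arrays. For all 36 genes, sex and genotype therefore cannot be told apart in Gli3-/- minus WT. *Was* and *Sh2d1a* are themselves X-linked. Their Gli3-/- minus WT changes were -0.19, -0.22 and -0.13 for *Was* and +0.01, +0.12 and +0.29 for *Sh2d1a* in the 3 populations in order of maturity, and none of them passed at an unadjusted p under 0.05.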

How the data were processed

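The authors sorted thymocytes of 3 populations from 3 genotypes and hybridised their RNA to Affymetrix Mouse Gene 2.0ST arrays. The deposited values are linear intensities from RMA, run by the authors with the oligo package (background correction, quantile normalisation and 1 value per transcript cluster). Versions and annotation were not given in the sources used here. The table held 41345 rows, and gene symbols from the platform annotation gave 23521 rows with 1 symbol, 1820 with several and 16004 with none. Rows with 1 symbol were kept, the row with the highest mean was taken for the 1082 genes with several, and 22180 genes were tested. The number of columns that belonged to no listed sample was 0.

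The log2 of the intensity was fitted with limma 3.58.1 in R 4.3.3, as means of the 9 groups over all 18 arrays (9 residual degrees of freedom), with Benjamini-Hochberg adjustment over all genes. The script was tested on simulated data. The genes, their roles and all gene lists were chosen with earlier results of these data known. All measured genes are named. Values were given for up to 6 called genes on each side of a comparison of populations by size of change, for the 4 genes with the smallest p in each population between genotypes, and for up to 4 called genes on each side of the wider pathway list, and other genes are marked as chosen after their values were seen. Arrays carry no read depth, and the number of arrays, 2 a group, limits the precision.

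The labels use the same 6 source names in all 3 populations. Deviations of same-numbered arrays from their group means correlated at r = 0.13 to 0.44 over the 9 pairs of groups of 1 genotype. Over the 9 pairs across genotypes they correlated at 0.24 to 0.55. Correlation was thus no higher within a source than between sources of the same number, and these values cannot show pairing by source. The main fit was not paired, and the source was a block only as an alternative. Alternatives were array number or source as a block, a fit of the compared arrays alone, and an intensity trend with a robust prior. Others were renormalisation by quantiles or cyclic loess, the mean of all rows of a gene, a filter on dim genes and leaving out each array. Contrasts within each genotype, taken from the fit of all 18 arrays, were added after the data were seen. Promoter windows are from RefSeq and share no coordinates with the arrays.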

Additional observations from a re-analysis of the deposited data

How the results depend on the processing

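No called change turned its direction under any alternative. The median Gli3-/- minus WT change of the 36 genes in CD69+ DP cells, -0.0033, was 0.0088 with cyclic loess and 7e-04 with quantile normalisation, and changes near 0 that were not called, such as those of *Zap70* and *Dgkz* between CD69- DP and SP4 cells, differed in sign between genotypes. In CD69+ DP against CD69- DP cells 14 of the 36 genes were called, and 12 to 16 under the other normalisations, filters, priors and blocks. Within single genotypes 2 were called in WT, 1 in Gli3+/- and 1 in Gli3-/- cells, as contrasts of 2 arrays against 2 in the common fit. Leaving out 1 array gave 7 to 14, and fewer than 10 without the number 1 array of any genotype in CD69+ DP cells, the WT or Gli3+/- number 1 array in CD69- DP cells, or the WT or Gli3-/- number 2 array in CD69- DP cells. In SP4 against CD69+ DP cells 14 were called, 9 when only the arrays compared were fitted, 1 within WT and 0 within Gli3+/- and within Gli3-/- cells. Leaving out 1 array gave 8 to 16, and 9 or fewer without the Gli3+/- CD69+ DP number 1 array, either Gli3-/- CD69+ DP array, the number 2 SP4 array of Gli3+/- or Gli3-/- cells, or the WT SP4 number 1 array. Over the interval from CD69- DP to SP4 15 were called, 13 to 16 when 1 array was left out, and 10, 1 and 2 within WT, Gli3+/- and Gli3-/- cells. Number 2 against number 1 arrays called 8 genes, and 5 to 8 when 1 array was left out, with the 5 on removal of any Gli3+/- array or of either Gli3-/- CD69+ DP array. With the named source as a replicate block 16, 17 and 18 genes were called in the 3 comparisons of populations, and with the array number 16, 20 and 19. No comparison between genotypes called any of the 36 genes under any alternative or block.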
